A study of Homo sapiens with 15 samples.

Results

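The inflammatory cytokine and NF-kappaB genes are a set of 36 genes of airway epithelium, made up of cytokines, chemokines, colony-stimulating factors, NF-kappaB subunits, their inhibitors and other NF-kappaB targets. They were chosen by name, as all probes whose gene name was one of the 36, which gave 50 probes among the 30484 gene names of the array. They were measured in A549 cells, an established line from a human lung adenocarcinoma, on 15 dual-color whole genome oligonucleotide arrays. On each array, cells transfected with a precursor oligonucleotide of 1 miRNA (the mimic, labeled with Cy5) were compared with cells transfected with an LNA antagomir of the same miRNA (labeled with Cy3). There were 5 miRNAs with 3 arrays each, miR-181d and miR-565, then miR-574-3p, and lastly miR-629* with miR-766, at 20 nM of oligonucleotide and with RNA taken at 24 h. No untreated or negative-control cells were on these arrays, so that a ratio sets the mimic against the antagomir and neither against untreated cells. No dye was swapped, so that within a miRNA the dye and the treatment cannot be told apart. The 3 arrays of each miRNA carry replicate numbers, but separate cultures are not stated, so that p-values measure the spread between these arrays, which may be technical.

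NF-kappaB is a family of transcription factors that cytokine and Toll-like receptors activate. In resting cells, IkappaB proteins such as NFKBIA hold the NF-kappaB dimers in the cytoplasm, and their phosphorylation and loss release the dimers to the nucleus. There they raise the transcription of cytokines, chemokines and survival genes, and also of their own inhibitors, which ends the response. In airway epithelium this pathway is known for the release of neutrophil-attracting chemokines such as IL8 and CXCL1 during injury and infection.

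The mature sequences are shown for the miRNAs that a RefSeq table (GRCh38.p14) holds under their current arm names, since they are the agents that separate the groups. The seed, bases 2 to 8, is in capitals, and no seed was shared between these miRNAs. miR-181d, now miR-181d-5p (chr19:13874910-13874932, plus strand), miR-574-3p (chr4:38868092-38868113, plus strand) and miR-629*, now miR-629-3p (chr15:70079387-70079408, minus strand), were found, and miR-565 and miR-766 are named only.
miR-181d: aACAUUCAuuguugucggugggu
miR-574-3p: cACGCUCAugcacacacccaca
miR-629*: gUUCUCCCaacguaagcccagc

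The promoters of the genes were searched for the kappaB-like motif GGANNTTCC, on both strands (thus also GGAANNTCC, with which it overlaps in GGAANTTCC), from 250 bases before to 50 after the start in RefSeq (GRCh38.p14). The table held promoters of 29 of the 36 genes, IL8 being listed under its current symbol CXCL8. The motif stood in 16 of 43 promoters of these genes (37.2%) and in 4.56% of all 35116 promoters. The genes were chosen as NF-kappaB targets, so that this share describes the choice. Examples are shown from IL6, IL8, CXCL1 and NFKBIA, which had a called ratio, and from CXCL2, motif in capitals, 5′ to 3′ on the strand of the gene. They lie at chr7:22727122-22727142 (IL6), chr4:73740472-73740492 (IL8), chr4:73869309-73869329 (CXCL1), chr4:74099258-74099278 (CXCL2), and chr14:35404977-35404997 and chr14:35404816-35404836 (NFKBIA). No match was in the windows of BCL3 and TNFAIP2.
IL6: aatgtgGGATTTTCCcatgag
IL8: aatcgtGGAATTTCCtctgac
CXCL1: actccgGGAATTTCCctggcc
CXCL2: gctccgGGAATTTCCctggcc
NFKBIA, distal: tcggaaGGACTTTCCagccac
NFKBIA, proximal: tggcttGGAAATTCCccgagc

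Of the probes of an array, 68.8% to 73.0% were well above background in the antagomir channel and 68.1% to 75.5% in the mimic channel, and precision is limited by how many arrays there were. The epithelial markers KRT8, KRT18, KRT7, CDH1, EPCAM and MUC1 were well above background in all 30 channels. The leukocyte marker PTPRC, the endothelial markers PECAM1 and CDH5 and the fibroblast markers COL1A2 and PDGFRB were so in none, whereas CD14, CD3E and COL1A1 were in all 30, VWF in 24 and LYZ in 3. Replicate 1 of miR-565 stood apart. The SD of its log2 ratios was 0.94, against 0.29 to 0.53 on the other 14 arrays, and it was the only miR-565 array on slide 1, with 3 arrays of miR-181d. The main counts are therefore given without this array too. miR-766 was alone on slide 4, so that slide and miRNA cannot be told apart for it.

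Most of the set was expressed in A549 cells. On 3 or more arrays, the brightest probe of 31 of the 36 genes was well above background in 1 channel or both, and these 31 were tested. IL1A, CCL20, CSF2, CSF3 and ICAM1 were not well above background in any of the 30 channels, their signals lying between 1.02 and 7.55. IL1A is an alarmin cytokine, CCL20 attracts dendritic cells and lymphocytes, CSF2 and CSF3 drive granulocyte and macrophage formation, and ICAM1 is an adhesion molecule for leukocytes. Among the cytokines and chemokines, IL6 and IL8 were dim, as were TNF and IL1B, with signals up to 11.1, 24.1, 20.0 and 43.0. The signals of IL11, LIF, CXCL1, CXCL2, CXCL5 and CCL2 were 527 or more in every channel, while those of CXCL3 started at 164 and those of CSF1, a macrophage growth factor, at 29.6. IRAK2, an adaptor of interleukin-1 receptors, was well above background in 4 antagomir and 8 mimic channels. Signals of different probes are not compared here, since probes differ in their response. On NCBI36, the build of the array files, the probes of IL6, IL8, NFKBIA, BCL3 and CXCL1 lie at chr7:22737732-22737791, chr4:74828129-74828188, chr14:34940539-34940598, chr19:49955031-49955090 and chr4:74955714-74955773.

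**Figure D1:**
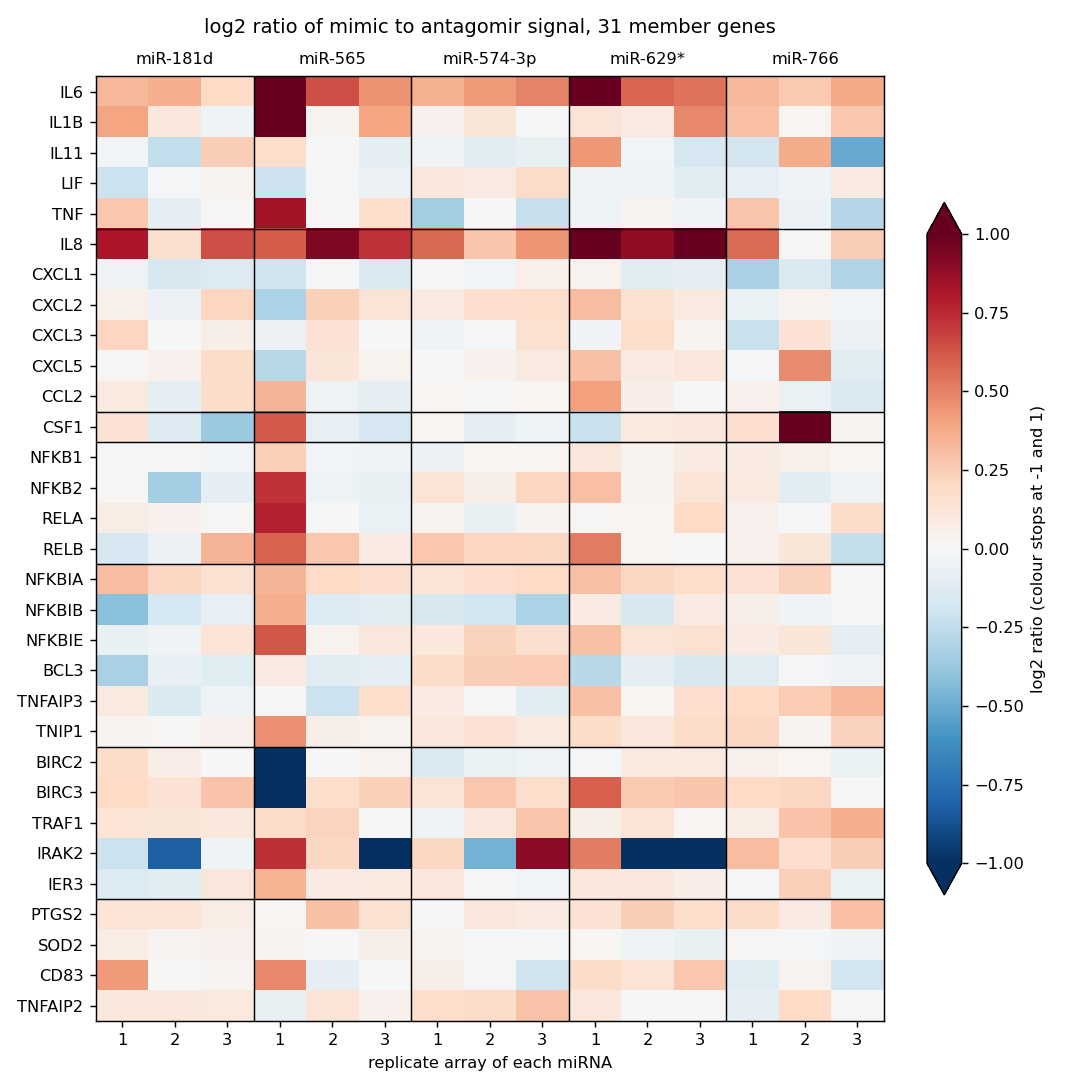
The log2 ratio of mimic to antagomir signal (color) of the 31 tested genes, in rows grouped by role, on the 15 arrays, in columns grouped by miRNA. IL6 and IL8 are above 0 on every array, BCL3 is above 0 on the 3 miR-574-3p arrays, and replicate 1 of miR-565 differs from the other 2 arrays of its miRNA at BIRC2 and BIRC3.

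Whether a miRNA shifted the set was asked first of the ratio of each miRNA, the mimic signal over the antagomir signal. Ratios differed from 0 on the log2 scale (limma, Benjamini-Hochberg adjusted p under 0.05 over all probes tested) for 10 of 155 pairs of a gene and a miRNA, or 6.45%, against 7.41% of all pairs of a probe and a miRNA. These pairs fell on 6 genes, namely IL6, IL8, NFKBIA, BCL3, TNFAIP2 and CXCL1, and 9 of the 10 were higher with the mimic. Over all probes, 4.42% of pairs were higher and 2.99% lower. IL6 passed the filter on dim probes through its mimic channel alone, so that the filter favoured a higher mimic there, and without IL6 the count was 8 of 150 pairs (5.33%). For miR-181d 1 of 31 genes was called (background 6.32%), for miR-565 3 of 31 (12.9%), for miR-574-3p 2 of 31 (5.37%), for miR-629* 3 of 31 (10.2%) and for miR-766 1 of 31 (2.24%). The genes were thus called about as often as other probes. The median log2 ratio of the set was, in the same order, 0.049, 0.068, 0.053, 0.092 and 0.036, beside 0.012, 0.030, 0.0066, 0.028 and 0.012 over all probes tested. Without replicate 1 of miR-565, 31 pairs on 13 genes were called (20%), while the background rose to 23.8%, and 5 of the 31 were lower with the mimic. Beside CXCL1 these were NFKBIB, an IkappaB protein, for miR-181d (log2 ratio -0.22, limma adjusted p = 0.0169) and miR-574-3p (-0.22, 0.0203), and BCL3 for miR-181d (-0.18, 0.012) and miR-629* (-0.18, 0.0101). By miRNA, again in this order, 5, 4, 8, 10 and 4 of the 31 genes were then called, against 27.8%, 15.9%, 22.2%, 34.7% and 18.6% of all probes. With the slide as a random block no ratio was called, for a single miRNA or in the mean, a fit in which log ratios correlated within a slide at 0.73 with replicate 1 of miR-565 and at -0.20 without it. No pair passed the threshold named in the methods, a ratio under 0.5 with p no higher than 0.001 and a signal of 20 or more, nor its mirror image, a ratio over 2, which was added here.

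**Figure D2:**
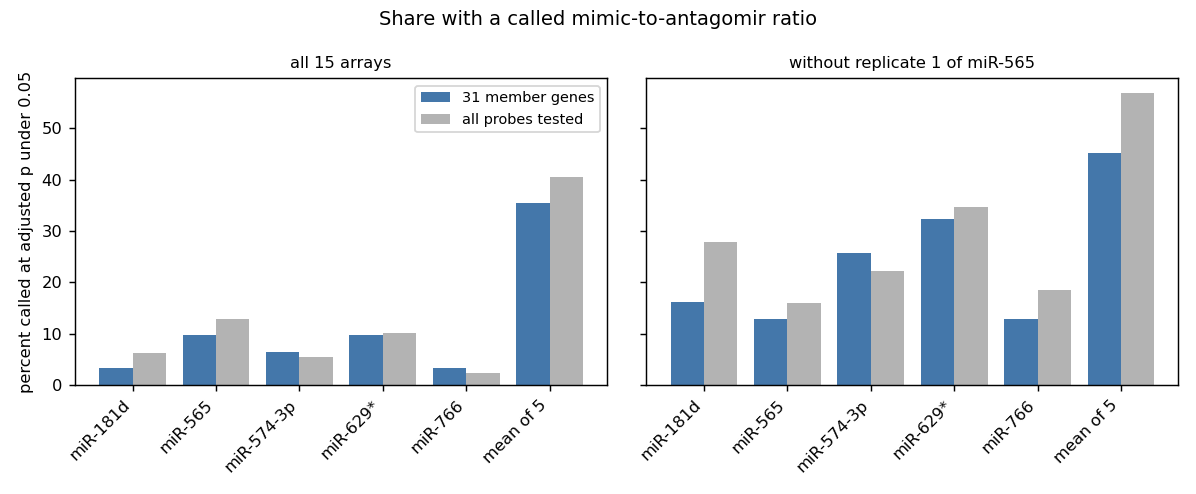
The percent of the 31 genes (blue) and of all probes tested (grey) with a called ratio, for each miRNA and for the mean ratio over the 5, on all 15 arrays (left) and without replicate 1 of miR-565 (right). The largest share of the set is that of the mean ratio, 35.5% with all arrays beside 40.5% of all probes, and both shares rise without that array.

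IL8 was higher with the mimic than with the antagomir for miR-565 and miR-629*. IL8 (CXCL8), the main neutrophil attractant of the airway, had signals of 15.3, 7.01 and 12.8 with the miR-565 antagomir and 23.3, 13.3 and 21.0 with its mimic. With miR-629* the antagomir signals were 9.51, 9.42 and 2.32 and the mimic signals 24.1, 17.4 and 5.78. The mimic was the brighter channel on all of these arrays, although the third miR-629* array was dimmer in both channels than the other 2. The log2 ratio of IL8 was 0.75 for miR-565 (standard error 0.17, limma adjusted p = 0.0161) and 1.18 for miR-629* (standard error 0.17, limma adjusted p = 0.0021). The antagomir channel was not well above background at 7.01 (miR-565) and at 2.32 (miR-629*), so that the ratios of these arrays, 0.93 and 1.32, were not measured on both sides and the means that hold them are uncertain. With the background corrected by normexp and the dyes by loess, its ratio fell to 0.19 for miR-565 and to 0.14 for miR-629*, the latter no longer called (limma adjusted p = 0.131). This normexp correction adds an offset of 50 to each signal, more than any IL8 signal, which by itself draws a ratio toward 0. The fall therefore does not test the IL8 ratio. Without replicate 1 of miR-565, the miR-565 ratio was 0.82 (limma adjusted p = 0.0158). For miR-181d, miR-574-3p and miR-766 the log2 ratios of IL8 were 0.54, 0.43 and 0.27 and were not called (limma adjusted p = 0.0733, 0.166 and 0.454). The miR-181d mean is uncertain too, since its antagomir signal of 7.26 on replicate 2 was not well above background. Against the mean of the other miRNAs, no ratio of IL8 was called either.

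IL6, a cytokine of the acute-phase response, was not well above background in the antagomir channel on any array, and in the mimic channel on 7 of 15, which alone brought it into the test. With the miR-565 antagomir its signals were 5.67, 3.52 and 4.15, and with the mimic 11.1, 5.54 and 5.32, of which none was well above background, so that no fold is given. With miR-629* they were 4.81, 4.08 and 3.64 for the antagomir and 9.44, 5.94 and 5.29 for the mimic, with 2 mimic arrays well above background. The mimic was again the brighter channel on each of these arrays. For miR-629* the ratio of mimic to antagomir had a lower bound of 1.05-fold, the antagomir being set on each array to the higher of its own signal and the dimmest one well above background, a bound open to dye bias and to the filter, which IL6 passed through its mimic channel alone (limma adjusted p = 0.011). The bound includes the mimic signal of 5.94, which was not itself well above background. Neither the bound nor its p-value therefore shows a higher mimic. The bound was below 1 for miR-181d, miR-574-3p and miR-766. The call for miR-629* was lost without replicate 1 or 3 of that miRNA (limma adjusted p = 0.0844 and 0.0529), and the call for miR-565 (limma adjusted p = 0.0136), made between signals of which none was well above background, was lost after normexp and loess (0.179). The normexp offset of 50 exceeds every IL6 signal, so that this last loss does not test the ratio. With probes required to be well above background in both channels on all arrays, neither IL6 nor IL8 was tested.

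**Figure D3:**
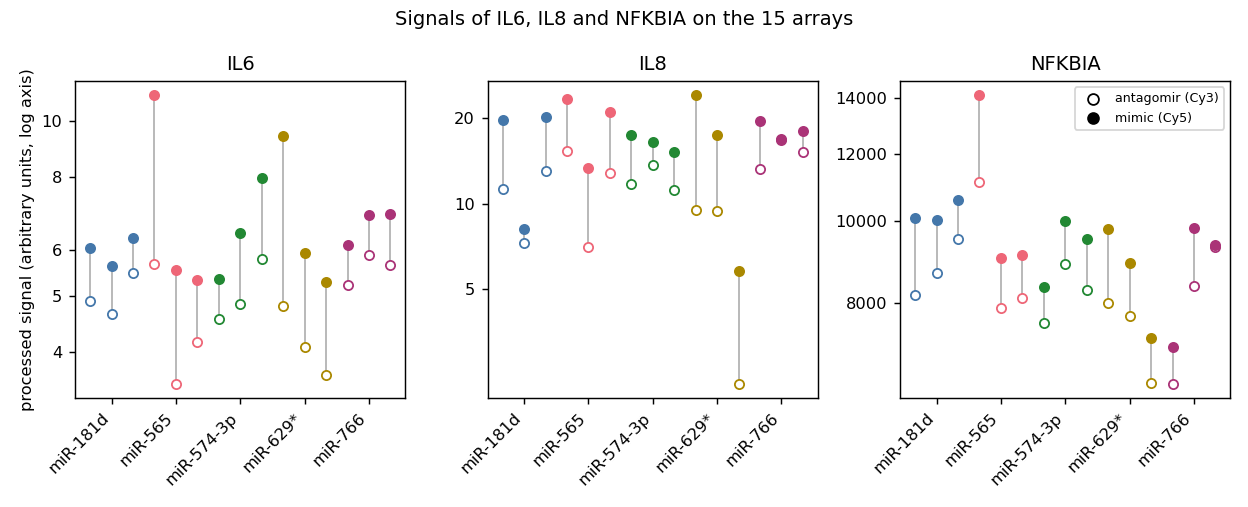
Processed signals (log axis, arbitrary units) of IL6, IL8 and NFKBIA in the antagomir channel (open circles) and the mimic channel (filled circles) of the 15 arrays, each pair of channels joined by a line. The mimic channel is the brighter one on all 15 arrays for each gene, by the least for IL8 on replicate 2 of miR-766.

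NFKBIA encodes IkappaB-alpha, the inhibitor that NF-kappaB itself induces. Its signals were 8171, 8694 and 9524 with the miR-181d antagomir and 10095, 10038 and 10589 with the mimic. For miR-565 they were 11138, 7886 and 8104 against 14089, 9053 and 9123, and for miR-629* 8011, 7732 and 6432 against 9797, 8931 and 7272. On each array the mimic was higher. Between arrays the antagomir and mimic signals overlapped for miR-565 and miR-629*, but not for miR-181d. The log2 ratio was 0.22 for miR-181d, 0.24 for miR-565 and 0.23 for miR-629* (standard error 0.049 each, limma adjusted p = 0.021, 0.0129 and 0.0155). It was 0.17 for miR-574-3p and 0.13 for miR-766, both called only without replicate 1 of miR-565 (limma adjusted p = 0.00905 and 0.0423). With the error-weighted mean none of the 3 calls was kept (limma adjusted p = 0.238, 0.14 and 0.184), and with only the 3 arrays of miR-565 that of miR-565 was lost (0.617). The call for miR-181d was lost without replicate 1, 2 or 3 of miR-181d (0.21, 0.0896 and 0.0558), and that for miR-629* without replicate 1, 2 or 3 of miR-629* (0.0991, 0.0732 and 0.0755). The other inhibitors differed from one another. NFKBIE and TNIP1, which restrain NF-kappaB signalling, had no called ratio for a single miRNA on the 15 arrays, with log2 ratios from 0.0083 to 0.26 and from 0.028 to 0.19. NFKBIB, another IkappaB, was between -0.22 and 0.042, and TNFAIP3, which removes ubiquitin chains from signalling proteins, between -0.033 and 0.26.

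BCL3 set miR-574-3p apart from the other miRNAs. BCL3 is an IkappaB family member that acts in the nucleus with NFKB1 and NFKB2 homodimers. On the 3 miR-574-3p arrays its signals were 15541, 18260 and 16954 with the antagomir and 17678, 21611 and 20254 with the mimic, and its log2 ratios 0.19, 0.24 and 0.26. On the other 12 arrays the log2 ratio lay between -0.32 and 0.09, below all 3. The log2 ratio was 0.23 for miR-574-3p (standard error 0.055, limma adjusted p = 0.0292), and it exceeded the mean of the other miRNAs by 0.34 (standard error 0.061, limma adjusted p = 0.0155). This was the only difference between miRNAs called among the 155 pairs of the set, against 0.279% of all pairs and, for miR-574-3p, 1.23% of probes, 0.501% being higher. A dye effect shared by all arrays cancels in this difference. On the slides that miR-574-3p shared, its ratio was higher by 0.32 than that of miR-565 (2 arrays each) and by 0.43 than that of miR-629* (1 array against 3). Both calls were lost without replicate 1, 2 or 3 of miR-574-3p (limma adjusted p = 0.124, 0.204 and 0.146 for the ratio, and 0.079, 0.122 and 0.12 for the difference). Without replicate 1 of miR-565 the difference was 0.36 (limma adjusted p = 0.00117).

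The channels were then compared, each against its own dye for the remaining miRNAs, after quantile normalization. In the antagomir channel, 7 of 155 pairs were called (4.52%), against 3.28% of all pairs of a probe and a miRNA, and 4 of the 7 were genes lower with the miR-574-3p antagomir. With this antagomir 8.7% of all probes were called, 4.47% being lower. The normalized log2 signal of BCL3 with this antagomir was 14.00 to 14.07, below the 14.21 to 14.48 of the other antagomirs, a difference of -0.28 (standard error 0.051, limma adjusted p = 0.00494). With the mimic, it was 14.22 to 14.28, within the 13.99 to 14.43 of the other mimics. The BCL3 difference in the antagomir channel was called under each of the 25 alternatives that gave it. LIF, a cytokine of the IL6 family, was at 10.81 to 10.84 with the miR-574-3p antagomir and at 10.88 to 11.16 with the others (difference -0.18, limma adjusted p = 0.00604), although its dimmer probe moved the other way by 0.55 and was not called (0.256). That probe was at 4.99 on replicate 3 of miR-574-3p. On replicates 1 and 2 it was at 3.36 and 3.77, within the 3.17 to 4.20 of the other antagomirs. TNFAIP2, a target gene induced by TNF, was at 14.51 to 14.67 against 14.67 to 14.87, with a slight overlap (difference -0.17, limma adjusted p = 0.0286). NFKB2, the p100 precursor of the p52 subunit, was at 6.10 to 6.22 against 6.20 to 6.79, so that the groups overlapped (difference -0.26, limma adjusted p = 0.0447). The NFKB2 call was lost without any one of the 3 miR-574-3p arrays (limma adjusted p = 0.0916 to 0.199), the 3 miR-565 arrays (0.0548 to 0.0709), replicate 1 of miR-181d (0.0533), replicates 2 and 3 of miR-629* (0.0676 and 0.0602) or replicates 1 and 2 of miR-766 (0.06 and 0.0629). The TNFAIP2 call was lost without replicate 2 or 3 of miR-574-3p (limma adjusted p = 0.132 and 0.184). With the slide as a fixed block, the calls of LIF, TNFAIP2 and NFKB2 were lost (limma adjusted p = 0.0575, 0.215 and 0.314), and with the 75th percentile as scale those of TNFAIP2 and NFKB2 (0.194 and 0.063). Without replicate 1 of miR-565, 6 pairs were called in this channel, against 2.45% of all pairs.

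TNFAIP2 was also the second gene with a called ratio for miR-574-3p. Its signals there were 23932, 26090 and 24519 with the antagomir and 26977, 29584 and 29884 with the mimic, and its log2 ratios of 0.17, 0.18 and 0.29 overlapped with the -0.092 to 0.20 of the other arrays. The log2 ratio was 0.21 (limma adjusted p = 0.0401, standard error 0.055) without a called difference from the other miRNAs. The call was lost in 14 of 28 alternatives, among them each fit without 1 array of miR-574-3p (limma adjusted p = 0.153 to 0.216) or of miR-181d (0.0526 to 0.0614) and the fits without replicate 3 of miR-565 (0.0515), replicate 2 or 3 of miR-629* (0.0605 and 0.0583) or replicate 3 of miR-766 (0.0503).

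**Figure D4:**
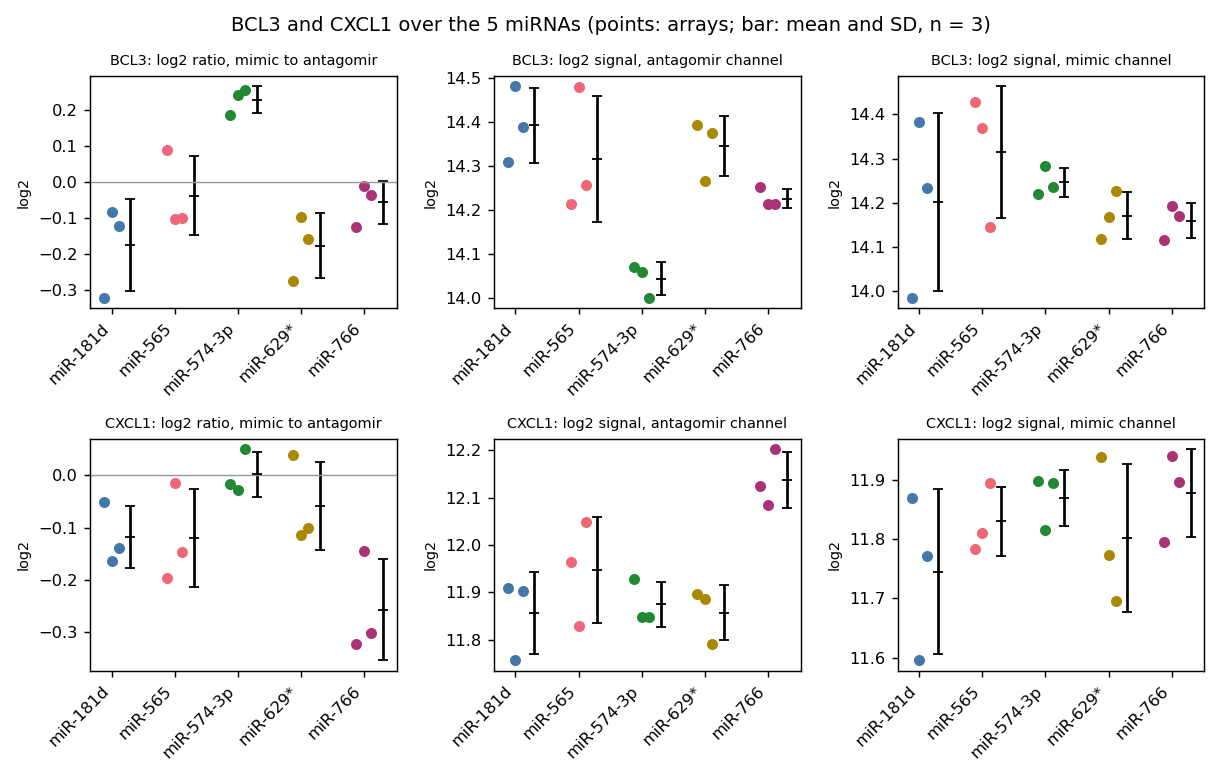
The log2 ratio (left), the normalized log2 antagomir signal (middle) and the normalized log2 mimic signal (right) of BCL3 (top) and CXCL1 (bottom) for each miRNA. Points are arrays and bars the mean and SD (n = 3). The miR-574-3p arrays are lowest for BCL3 and the miR-766 arrays highest for CXCL1 in the antagomir channel, while the mimic channels overlap.

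CXCL1, a neutrophil attractant, was lower with the miR-766 mimic than with its antagomir. Its signals were 3633, 4659 and 4970 with the antagomir and 2904, 4212 and 4029 with the mimic, lower on each array. The log2 ratios were -0.32, -0.15 and -0.30, against -0.20 to 0.051 on the other arrays, with which they overlapped. The log2 ratio was -0.26 for miR-766 (limma adjusted p = 0.0198, standard error 0.05) without a called difference from the other miRNAs. This call was lost without replicate 1 or 3 of miR-766 (limma adjusted p = 0.239 and 0.106). In the antagomir channel CXCL1 was at a normalized log2 signal of 12.08 to 12.20 for miR-766 and of 11.76 to 12.05 for the others, a difference of 0.25 (standard error 0.047, limma adjusted p = 0.016). The related CXCL2 was at 9.84 to 9.91 against 9.49 to 9.76 (difference 0.24, limma adjusted p = 0.0163), although its other probe differed by 0.054 and was not called (0.483). Both differences were lost without replicate 3 of miR-766 (limma adjusted p = 0.0948 and 0.0904), and that of CXCL2 also without replicate 2 (0.0577). TNF, the prototype NF-kappaB activating cytokine, was at 2.87 to 3.09 against 3.27 to 3.86 (difference -0.55, limma adjusted p = 0.0192), from raw signals of 7.87, 9.36 and 10.8 of which 2 were well above background. The TNF call was lost without replicate 2 or 3 of miR-766 (limma adjusted p = 0.0882 and 0.0693), and with the 75th percentile as scale the difference was -0.32 (0.164). The other TNF probe was too dim to be tested and gives no direction. The mean of both probes, which holds that dim one, differed by 0.19 (limma adjusted p = 0.641). These 3 genes of the 31, 2 higher and 1 lower, compare with 3.64% of all probes called for this antagomir, 1.31% higher and 2.33% lower. All 3 differences are between slide 4 and the other slides.

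In the mimic channel, limma called 0 of 155 pairs, against 0.0517% of all pairs, and 0 without replicate 1 of miR-565, against 0.0798%. At an unadjusted p under 0.05, 2, 3, 0, 1 and 2 of the 31 genes passed in the 5 miRNAs, in the order above, beside 4.34%, 17.8%, 3.25%, 2.11% and 4.38% of all probes. No gene was called in the antagomir channel of miR-181d, miR-565 or miR-629*, where 8, 2 and 5 of 31 genes had an unadjusted p under 0.05 in limma, beside 20.9%, 17% and 13% of all probes. Apart from BCL3, none was called for the difference of a ratio from the other miRNAs, with 1, 2, 4, 2 and 3 genes at an unadjusted p under 0.05, BCL3 among the 4 of miR-574-3p, beside 7.12%, 16.5%, 10.9%, 4.42% and 2.54% of all probes.

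The 4 subunits of NF-kappaB had no called ratio for a single miRNA, and on replicate 1 of miR-565 each was at its highest. NFKB1, the p105 precursor of p50, had log2 ratios from -0.058 to 0.11 on 14 arrays and 0.24 on replicate 1 of miR-565. RELA, the p65 subunit, was between -0.072 and 0.20 on the 14 arrays and at 0.77 on that array, where its mimic signal was 1650 against 631 to 891 elsewhere. RELB reached 0.59 and NFKB2 0.73 on the same array. On the other 14 arrays RELB ranged from -0.24 to 0.52 and NFKB2 from -0.34 to 0.30. Without this array the ratio of NFKB1 was called for miR-629* at 0.076 (standard error 0.026, limma adjusted p = 0.0371).

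BIRC2 and BIRC3, the ubiquitin ligases cIAP1 and cIAP2 that act between TNF receptors and NF-kappaB, were lowest on the same array. BIRC2 had mimic signals of 205, 614 and 641 on the 3 miR-565 arrays and BIRC3 of 205, 687 and 782, with log2 ratios of -1.76, -0.0062 and 0.035 for BIRC2 and of -1.90, 0.17 and 0.24 for BIRC3. The antagomir signals of that array, 696 and 766, lay within the range of the other arrays. The low values were thus on 1 of 3 arrays, and neither gene was called for miR-565 (log2 ratio -0.58 and -0.50, standard error 0.24 and 0.28, limma adjusted p = 0.108 and 0.221). Without the array, BIRC3 was higher with the mimic for miR-181d (log2 ratio 0.21, limma adjusted p = 0.0249), miR-574-3p (0.19, 0.0414) and miR-629* (0.38, 0.000896). IL1B, the cytokine of the inflammasome, was at 43.0 with the mimic on the same array and at 15.6 to 24.4 on the others. CSF1 was at 288 with the mimic of replicate 2 of miR-766 and at 29.6 to 62.6 on the other 14 arrays. These single-array values have no replicate behind them. The dimmer CSF1 probe had a log2 ratio of 0.20 on that miR-766 array, and 0.43 and 0.15 on replicates 1 and 3. Its ratios were 0.22, -0.030 and 0.45 for miR-181d and 1.60, 0.43 and 0.29 for miR-565. For miR-574-3p they were 0.47, 0.18 and 0.29, and for miR-629* 0.64, 0.45 and 0.67.

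The mean ratio over the 5 miRNAs gives what the ratios shared, without telling mimic from antagomir, and in it dye and treatment cannot be told apart. It was called for 11 of 31 genes (35.5%), 10 of them higher with the mimic, against 40.5% of all probes tested, of which 22.2% were higher and 18.4% lower. The median was 0.073 for the set and 0.011 for all probes. IL8 averaged a log2 ratio at 0.64 (standard error 0.074, limma adjusted p = 3.72e-05), and its ratios ran from 0.0094 over a median of 0.61 to 1.34. After normexp and loess the mean of IL8 was 0.11 (limma adjusted p = 0.0036), a value drawn toward 0 by the offset of 50. NFKBIA, from 0.01 over 0.20 to 0.34, averaged 0.20 (standard error 0.022, limma adjusted p = 2.71e-05). NFKBIA, TNIP1 and IL8, whose antagomir signal was well above background on 12 of 15 arrays, were above 0 on all 15 arrays, as were 5.59% of all probes tested, and so was IL6, whose sign the filter favoured. The mean of TNIP1 was 0.13 (limma adjusted p = 0.00529) on its brighter probe and -0.095 (0.17) on its dimmer one. PTGS2, the inducible cyclooxygenase, was called at 0.14 (limma adjusted p = 0.00201) and on its dimmer probe at 0.24 (0.00154). NFKBIE had a mean of 0.13 (limma adjusted p = 0.0211), TNFAIP2 of 0.083 (0.0166), and TRAF1, an adaptor of TNF receptors, of 0.14 (0.0217). CXCL1 was the only gene that was lower, at -0.11 (standard error 0.022, limma adjusted p = 0.00198), with ratios from -0.32 over -0.11 to 0.051. IL6 was among the 11 as well (limma adjusted p = 0.000101), but it was tested only through its mimic channel, and without it 10 of 30 genes were called (33.3%).

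The calls of IL1B (mean 0.23, limma adjusted p = 0.0365) and RELB (0.15, 0.0433) depended on single arrays and on the processing. IL1B was lost without replicate 1 or 2 of miR-181d (limma adjusted p = 0.0777 and 0.0548), any array of miR-574-3p (0.0534 to 0.0701), replicate 3 of miR-629* (0.0806) or replicate 1 or 3 of miR-766 (0.0703 and 0.0643). RELB was lost in the same way without 10 arrays, namely replicates 2 and 3 of miR-181d (0.0513 and 0.0911), 1 and 2 of miR-565 (0.0612 and 0.054), 1, 2 and 3 of miR-574-3p (0.0756, 0.069 and 0.0645), 1 of miR-629* (0.0878) and 1 and 2 of miR-766 (0.0835 and 0.0872). TRAF1 was lost without replicate 3 of miR-574-3p (0.0524) and with the mean of its probes (0.067). After normexp and loess the means of TRAF1, IL1B, PTGS2 and RELB were 0.024, 0.054, 0.085 and 0.11, and none was called (limma adjusted p = 0.429, 0.0558, 0.0576 and 0.0806). The offset of 50 by itself draws ratios of dim probes toward 0. Such probes are those of IL1B, with signals of 11.2 to 43.0, and of TRAF1, with 45.7 to 83.1. With median centring TNFAIP2 was lost (0.058, limma adjusted p = 0.129). RELB was lost as well with median centring (0.0769), without the intensity trend (0.0637) and with the series table (0.0586). Without replicate 1 of miR-565 the mean was called for 14 of 31 genes, against 56.9% of all probes. Of the 14, CXCL1, NFKBIB (-0.11, limma adjusted p = 0.00581) and BCL3 (-0.057, 0.0356) were lower, and BIRC3 then had a mean of 0.23 (limma adjusted p = 3.63e-05).

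The remaining genes had no called value on the 15 arrays in any comparison. SOD2, the mitochondrial superoxide dismutase, varied least, with log2 ratios from -0.076 to 0.076, although its dimmer probe had a mean ratio of 0.30 that was not called (limma adjusted p = 0.0556). That mean is uncertain, since several antagomir signals of the dimmer probe, among them all those of miR-574-3p, were not well above background. The ratios of IER3, an early response gene, lay between -0.14 and 0.34, those of CXCL3 between -0.22 and 0.21, those of CXCL5 between -0.28 and 0.47, those of CCL2, a monocyte attractant, between -0.14 and 0.41, those of IL11 between -0.51 and 0.44, and those of CD83, a surface protein of activated cells, between -0.20 and 0.48. IRAK2 ran from -2.19 to 0.90 at signals of 1.72 to 10.6. Within a miRNA the median SD of the log2 ratio was 0.17 for the 31 genes and 0.22 for all probes tested, and without replicate 1 of miR-565 it was 0.11 and 0.13. One of the 2 probes named IL8 was left out, since its accession and position are not those of IL8.

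The wider pathway was read from a list of 70 receptors, upstream signalling genes and other targets, of which 60 were tested. For miR-574-3p 2 of 60 were called, both higher with the mimic, against 5.37% of all probes. This direction did not hold without replicate 1 of miR-565, where 10 of 60 were called, against 22.2% of all probes, 4 higher and 6 lower with the mimic. MYD88, the adaptor that links Toll-like and interleukin-1 receptors to NF-kappaB, had antagomir signals of 587, 578 and 566 and mimic signals of 926, 928 and 976. Its log2 ratios of 0.66, 0.68 and 0.79 lay above the -0.27 to 0.35 of the other 12 arrays. The log2 ratio was 0.71 (standard error 0.089, limma adjusted p = 0.000651), and it exceeded that of the other miRNAs by 0.76 (standard error 0.1, limma adjusted p = 0.0016), or by 0.80 without replicate 1 of miR-565 (2.6e-05). In the antagomir channel MYD88 was lower by 0.93 on the log2 scale than with the other antagomirs (difference -0.93, limma adjusted p = 7.86e-07), whereas in the mimic channel it was not called (-0.15, 0.981). The other gene called with all arrays was ZC3H12A, an RNase that degrades IL6 and other cytokine transcripts, at 0.48 (standard error 0.054, limma adjusted p = 0.000275).

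ZC3H12A was also higher with the mimic for miR-181d (0.27, limma adjusted p = 0.0133), miR-565 (0.31, 0.0059) and miR-629* (0.24, 0.0166). For miR-181d 6 of 60 pathway genes were called, against 6.32% of all probes, the other 5 being lower with the mimic, namely TNIP2 (-0.58), BCL2L1 (-0.46), IRAK1 (-0.39), TRAF2 (-0.34) and IKBKG (-0.26). For miR-629* 6 of 60 were called, against 10.2% of all probes, of which TNIP2 (-0.61), IRAK1 (-0.36), LTBR (-0.31) and IKBKG (-0.25) were lower and IL1RAP (0.35) was higher besides ZC3H12A. IRAK1 is the kinase below MYD88, and IKBKG the regulatory subunit of the IkappaB kinase. For miR-565 4 of 60 were called, against 12.9% of all probes, and all were higher, with CX3CL1 at 0.65, OSMR at 0.38 and GADD45B at 0.21 beside ZC3H12A, and for miR-766 limma called 0 of 60, against 2.24% of all probes, with 8 at an unadjusted p under 0.05, against 16.5%. Without replicate 1 of miR-565, 18, 11, 10, 23 and 10 of 60 were called in the order used above, against 27.8%, 15.9%, 22.2%, 34.7% and 18.6% of all probes. Of these, 8, 4, 4, 12 and 2 were higher and 10, 7, 6, 11 and 8 lower with the mimic. The shares of all probes that were higher and lower in this fit are not given, so that these directions have no background beside them. For miR-565, OSMR and CX3CL1 were no longer called in it. The median log2 ratio of the pathway genes was -0.00058, -0.014, -0.028, 0.012 and -0.011, in that order.

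In the mean over the 5 miRNAs, 20 of the 60 pathway genes were called, beside 40.5% of all probes. Without replicate 1 of miR-565 it was 29, of which 15 were higher and 14 lower, beside 56.9%. The genes named next are those called on the 15 arrays. Of the 23 upstream signalling genes 8 were lower (18.4% of all probes were) with the mimic, namely TNIP2, NFKBIZ, IRAK1, IRAK4, TRAF2, IKBKG, MAP3K7IP1 and RIPK1, and TRAF6 was higher. Their values ran from -0.46 for TNIP2 to -0.086 for RIPK1. Over all probes, 22.2% were higher and 18.4% lower. Of the receptors, IL1RAP, OSMR and CSF2RB were higher and LTBR was lower. Of the other targets, ZC3H12A, LCN2, TNFSF10 and GADD45B were higher, and SAA2, BCL2L1 and XIAP lower. In the antagomir channel, MYD88 was higher for miR-565 (0.33, limma adjusted p = 0.0127) and miR-766 (0.24, 0.0372) and BCL2L1, an inhibitor of apoptosis, was higher for miR-565 (0.23, 0.00776) than for the mean of the other antagomirs, which includes the low one of miR-574-3p, calls that were all lost without replicate 1 of miR-565. BCL2L1 was lower for miR-574-3p (-0.40, 2.22e-05). Also for miR-574-3p, ZC3H12A was lower (-0.29, 0.0114) and FAS (0.22, 0.0289) and MAP3K7 (0.091, 0.0243) were higher, and for miR-766 TRADD was lower (-0.12, 0.0266). Of all probes, 8.7% were called in this channel for miR-574-3p (4.23% higher, 4.47% lower), 1.97% for miR-565 and 3.64% for miR-766. Without replicate 1 of miR-565, 5 of 60 pathway genes were called in this channel for miR-574-3p, beside 7.48% of all probes.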

How the data were processed

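Per the labels, RNA from A549 cells (1 µg per channel) was hybridized to dual-color arrays, 3 for each of 5 miRNAs, and read with Agilent Feature Extraction 9.5.3. The authors deposited each spot's intensity, both as mean signal with its local background and after the software's background subtraction and dye normalization (the processed signal). For each spot the deposited files add a log10 ratio, a score for its error and the software's p-value for it, the last of which was not used here. The series table of the authors equals that log10 ratio (largest difference 0).

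Processed Cy5 was divided by processed Cy3 and put on the log2 scale, without control or outlier spots, and spots of a probe were averaged, leaving 41000 probes. All 15 arrays entered 1 limma 3.58.1 model in R 4.3.3 (lmFit, then eBayes with trend by intensity) that had 1 coefficient per miRNA. Adjusted p-values (Benjamini-Hochberg) covered probes that were well above background, by Cy3 or Cy5, on 3 or more arrays, and an adjusted p under 0.05 was a call. A gene was read from its brightest probe. For the channel comparisons, signals were floored at 1 and quantile normalized within the dye. Values on each array are given for genes with a call and for genes of which 1 array stood apart, the latter chosen after their values were seen. Genes of the pathway list are named where called.

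The fits were tested on simulated data in which the changed probes were known. The genes and lists were chosen with earlier results of these data known. Same-numbered replicates were not treated as pairs. Probe positions in the files are of NCBI36 and are not used with the RefSeq coordinates. Alternatives were other background corrections, scalings, filters on dim probes, the series table, an error-weighted mean, the threshold of the methods taken in both directions, blocks for replicate number and slide, and each array left out. The error-weighted mean was tested by a z-test on the deposited error scores, not by limma. The normexp correction added an offset of 50 to each signal. The Rosetta Resolver analysis of the methods was not used here.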

Additional observations from a re-analysis of the deposited data

Results flagged for a closer look

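The log2 ratio of BCL3 for miR-574-3p differed from the mean of the other miRNAs by 0.34 (limma adjusted p = 0.0155), higher on each of its 3 arrays than on the 12 others. With 3 arrays per miRNA, no group was large enough for the test of single outlying arrays.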

How the results depend on the processing

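Of the 29 called values of single genes of the set, 1 was called under every alternative that gave it, the antagomir-channel difference of BCL3 for miR-574-3p. Values of the pathway list are not among the 29. With the mean of all probes of a gene 2 reversed, namely LIF for miR-574-3p (0.17) and TNF for miR-766 (0.19), both in the antagomir channel. The TNF mean holds a probe too dim to be tested. The LIF mean holds a dim probe that was at 4.99 on replicate 3 of miR-574-3p, against 3.36 and 3.77 on replicates 1 and 2. These 2 reversals therefore rest on dim probes. In the order of the ratio of each miRNA, its difference from the other miRNAs, the mean ratio, the antagomir channel and the mimic channel, the calls were 10, 1, 11, 7 and 0. They are of 155 pairs, or of 31 genes for the mean ratio. Beside them stand 7.41%, 0.279%, 40.5%, 3.28% and 0.0517% of all pairs, or of all probes for the mean ratio. With the slide as a random block the calls were 0, 9, 0, 40 and 5, beside 1.14%, 6.61%, 0.322%, 19.5% and 4.14%. The fitted correlation within a slide was 0.73 for the log ratio, -0.226 for the antagomir channel and 0.727 for the mimic channel. A negative correlation narrows the standard error of a group that lies on 1 slide, so that a larger count there does not show more differences. Only miR-565 and miR-574-3p lay on more than 1 slide. In a fit chosen after seeing the data, with this random block and replicate 1 of miR-565 left out, the calls were 56, 11, 19, 32 and 30, beside 40.4%, 7.78%, 73.3%, 16.2% and 15.4%. All 3 correlations were negative in it (-0.204 for the log ratio, -0.225 for the antagomir channel and -0.293 for the mimic channel). With the slide as a fixed block, which gave no value for miR-766, 124 pairs were tested. The differences called were 27 (21.8%) for the ratio, 1 (0.806%) for the antagomir channel and 15 (12.1%) for the mimic channel. Over all pairs the shares were 27%, 0.952% and 16.8%. The ratio calls were 6 of 155 without the intensity trend, beside 4.86% of all pairs, those of NFKBIA for miR-181d, BCL3, TNFAIP2 and CXCL1 being lost. With probes well above background in both channels on all arrays they were 6 of 135 (8.19% of all pairs). With only the 3 arrays of the miRNA they were 16 of 155 (11.1%), those of IL6, IL8 and NFKBIA for miR-565 and of IL6 for miR-629* being lost. The z-test of the error-weighted mean gave 25 of 155 (13.3%), those of NFKBIA, BCL3, TNFAIP2 and CXCL1 being lost. The threshold of the methods taken in both directions gave 0, and the difference calls were 0 without the trend (0.188%). Leaving out 1 array gave 7 to 31 ratio calls, 0 to 1 differences and 4 to 8 antagomir calls, beside 4.29% to 23.8%, 0.0957% to 1.32% and 2.05% to 3.34% of all pairs. For the mean ratio it gave 8 to 14, beside 33.8% to 56.9% of all probes. The largest number of ratio calls, 31, was without replicate 1 of miR-565. The replicate block gave 10, 1, 11, 8 and 0 pairs and lost the antagomir call of NFKB2 (limma adjusted p = 0.0512). Deviations of same-numbered arrays correlated at -0.40 to 0.51. Signal over background limits IL6, IL8, TNF and IRAK2.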
